A study of Mus musculus with 6 samples.

Results

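The miRNAs described here come from a pair of polycistrons, miR-17-92 and miR-106b-25, which are genes whose transcript carries several miRNA hairpins in a row. The members are mmu-miR-17, mmu-miR-17*, mmu-miR-18a, mmu-miR-19a, mmu-miR-20a, mmu-miR-19b and mmu-miR-92a of miR-17-92, and mmu-miR-106b, mmu-miR-93 and mmu-miR-25 of miR-106b-25, written without the mouse prefix from here on. They were found on the array by name: a probe was taken when one of the miRNA names it carries was the mouse name of a member. This gave 10 of the 597 mouse miRNA probes (7 and 3 by polycistron), each with 4 spots on an array, and 40 of the 2388 mouse spots.

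The samples were retinal cells of B10.RIII mice aged 8 weeks. One group was naive, and the other was developing experimental autoimmune uveoretinitis (EAU), in which T cells that recognise retinal antigens inflame the retina, and was taken on day 14; each group had 3 independently harvested samples. From each, 800 ng of total RNA received the dye Hy3 and went onto a capture array of locked nucleic acid probes together with 1 common Hy5-labelled reference, a pool of equal amounts of the samples. The labels give no allele, transgene or agent beyond the disease state, and they do not say how many mice each harvest held, so p-values measure the spread between harvests.

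MiR-17-92 and miR-106b-25 are known as miRNA genes of dividing cells. Both are driven by the transcription factors MYC and E2F in many cell types, and miR-17-92 holds back cell death and cell cycle arrest, among other effects through Bim and p21. It is needed for normal B cell development and supports the expansion of activated T cells. A miRNA pairs with its targets mainly through its seed, bases 2 to 8 from its 5′ end, so members with the same seed form a family that can act on the same messages. Each hairpin gives a guide strand and a passenger strand, the latter marked with an asterisk on this array.

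The mature sequences are shown because the members are compared below by seed. All 10 were found in RefSeq (GRCm38.p6), and they are written 5′ to 3′ with the seed in capitals. The first 4 share the seed of the miR-17 family, and miR-18a has a seed of its own.
miR-17: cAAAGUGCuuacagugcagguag
miR-20a: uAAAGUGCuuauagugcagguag
miR-106b: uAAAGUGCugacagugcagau
miR-93: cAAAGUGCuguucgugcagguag
miR-18a: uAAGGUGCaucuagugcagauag
The miR-19 and miR-92 families have seeds that do not resemble these.
miR-19a: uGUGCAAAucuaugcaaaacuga
miR-19b: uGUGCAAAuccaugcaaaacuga
miR-92a: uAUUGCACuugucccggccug
miR-25: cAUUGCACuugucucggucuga
The passenger strand on the list has another seed again.
miR-17*: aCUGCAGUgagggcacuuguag

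Within the families the mature sequences are close, which bears on what a hybridisation probe can separate. MiR-19a and miR-19b differ by 1 base edit, miR-17 and miR-20a by 2, miR-17 and miR-93 by 3, miR-92a and miR-25 by 4, miR-17 and miR-106b by 5 and miR-106b and miR-93 by 7. The capture sequences of the probes are not used here, so cross-hybridisation between such neighbours was not tested. Of the 1679 mature mouse names in the table, 7 carry the seed AAAGUGC, 6 carry AUUGCAC and 2 carry GUGCAAA. MiR-17 and miR-17* come from opposite arms of 1 hairpin, shown with both mature strands in capitals.
Mir17: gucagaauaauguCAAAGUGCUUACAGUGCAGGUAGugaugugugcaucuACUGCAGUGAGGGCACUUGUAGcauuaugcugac

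In GRCm38.p6 the 6 hairpins of miR-17-92 lie in 836 bases on the forward strand, chr14:115043671-115044506, in the order Mir17, Mir18, Mir19a, Mir20a, Mir19b-1 and Mir92-1. The annotated host transcript Mir17hg, a long non-coding RNA, spans chr14:115044390-115046728 and covers all 80 bases of Mir92-1, 2 bases of Mir19b-1 and 0 bases of the other hairpins. The 3 hairpins of miR-106b-25 lie in 498 bases on the reverse strand, chr5:138165321-138165818, and all are within the annotated span of Mcm7, chr5:138164583-138172111, which encodes a subunit of the helicase that opens DNA at replication origins. MiR-19b and miR-92a are each made from a second hairpin on the X chromosome as well, Mir19b-2 and Mir92-2, with the same mature sequence, so their probes do not separate the loci.

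The arrays were read against their own blanks. The blank level of an array is set from the sample-channel signal, as the median with 3 median absolute deviations added, over its 144 blank and negative-control spots, and it lay between 65.4 and 107. Between 249 and 315 mouse probes were above it on an array, counting a probe when at least 50% of its spots were. In the reference channel this number was lowest on EAU replicate 3, at 149 probes. All naive arrays were scanned on one day and all EAU arrays on another, on separate slides, so scan day and disease cannot be told apart in any comparison below.

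Of the 10, 5 were above the blanks on all 6 arrays: miR-17*, miR-19a, miR-19b and miR-92a of miR-17-92 and miR-106b of miR-106b-25. Their sample signal was 1.11 to 3.27 times the blank level. MiR-92a was at the limit of the rule, with 2 of its 4 spots above on naive replicate 1 and on EAU replicates 1 and 2. With the deviations scaled up by the usual factor for a normal spread, 4 members were above on naive replicate 1 and on EAU replicate 1, and 5 on each other array. The other 5 were dim: miR-18a, miR-93 and miR-25 were above the blanks on no array, and miR-17 and miR-20a on EAU replicate 2 alone. Their signal lay between 0.543 and 1.11 times the blank level, so no fold is given for them. Among all tested mouse probes, 195 of 595 passed the blank level on all 6 arrays and 224 on no array.

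**Figure D1:**
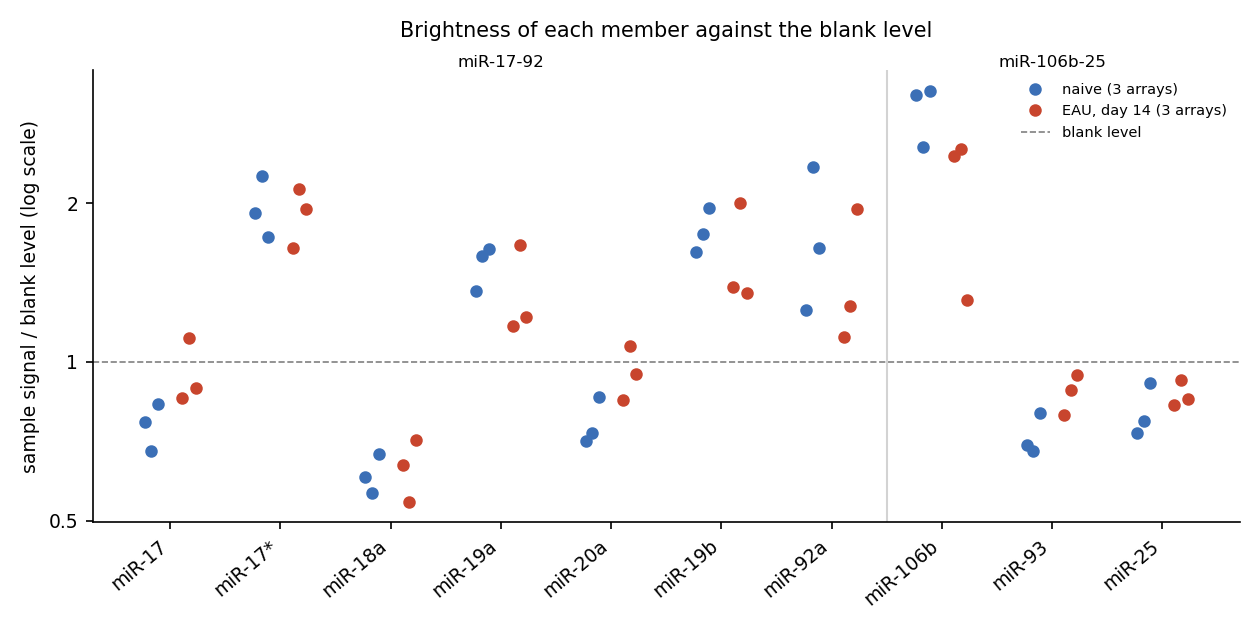
Sample-channel signal of each member divided by the blank level of its array, on a log scale, with 1 point per array (3 naive, 3 EAU) and a dashed line at the blank level. MiR-17*, miR-19a, miR-19b, miR-92a and miR-106b lie above the line on all 6 arrays, and the other 5 members lie at or below it on at least 5.

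EAU was compared with naive by limma on log2(Hy3/Hy5), the log2 ratio of sample to reference, with p-values adjusted by the Benjamini-Hochberg method over 595 probes and a threshold of 0.05. Of the 10 members, miR-106b fell and 0 rose. Over all tested mouse probes 12.9% were called in either direction, 8.74% lower and 4.2% higher, so 1 call among 10 members is close to the share among all probes. The member differences ran from -0.34 to 0.072 with a median of 0.0061, against a median of -0.012 over all probes, and 5 were positive and 5 negative. At an unadjusted p under 0.05, 3 members were lower (miR-106b, miR-17* and miR-92a) and 2 higher (miR-20a and miR-93), against 23.4% lower and 11.3% higher over all tested probes.

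The groups did not overlap for 5 of the 10 members, 3 lower and 2 higher in EAU. Among all tested probes this was so for 46.2%, lower for 29.2% and higher for 17%. The 5 members above the blanks on all arrays had differences from -0.34 to -0.010, all of them negative, and the 5 dim members had differences from 0.023 to 0.072, all positive. Of all tested probes above the blanks on all arrays, 95 were positive and 100 negative and 14.4% were called lower, and of those under the blanks on all arrays 101 were positive and 123 negative. The split among the members does not hold under every setting: miR-17*, miR-18a, miR-19a, miR-19b and miR-25 each changed sign under at least 1 of the alternatives given in the closing section.

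**Figure D2:**
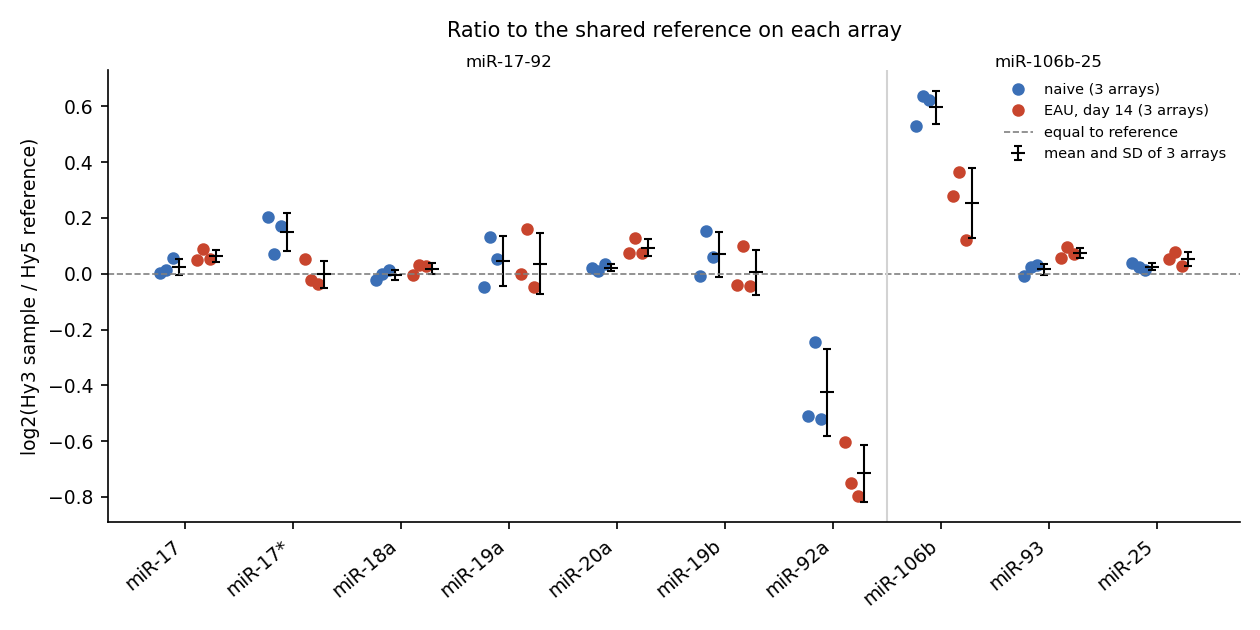
Log2 ratio of sample to shared reference for each member, with 1 point per array (3 naive, 3 EAU) and the mean and SD of each group as bars. Naive and EAU arrays are apart for miR-17*, miR-20a, miR-92a, miR-106b and miR-93, and of these only miR-106b passed the adjusted threshold.

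The miR-17 family holds 4 members, miR-17 and miR-20a of miR-17-92 and miR-106b and miR-93 of miR-106b-25. MiRNAs with this seed are known to bind the message of p21 and of other brakes on the cell cycle. Only miR-106b of the 4 was called, and it was also the only one above the blanks on all arrays. The median difference of the family was 0.049, with 3 members positive and 1 negative.

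MiR-106b, the first hairpin of its polycistron and a miRNA known to lower p21, had log2 ratios of 0.53, 0.64 and 0.62 in the 3 naive samples. In the EAU samples they were 0.28, 0.36 and 0.12. All EAU values lay under the lowest naive value, and EAU replicate 3 was lowest. The arrays of both groups all lay above the reference, although the reference is a pool of the same samples. The mean went from 0.60 ± 0.06 to 0.25 ± 0.12 (SD, n = 3 each), a log2 difference of -0.34 (SE 0.069, 95% interval -0.52 to -0.17; limma adjusted p = 0.0380), or 1.27-fold lower. On EAU replicate 3, the lowest array, 0 of the 4 reference spots of the probe were above the blanks, and without that array the difference was -0.28 (limma adjusted p = 0.0721). In RNA of whole samples, fewer cells of a type and less of a miRNA per cell cannot be told apart.

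The brightness behind these ratios was modest. Above the local background, miR-106b gave a sample signal of 263, 212 and 193 on the naive arrays and 156, 248 and 62.7 on the EAU arrays. Here the groups overlapped: EAU replicate 2, the array with the highest blank level, lay above naive replicates 2 and 3. The reference signal of the probe was 7.85 to 19.7 on the naive arrays and 3.35 to 14.1 on the EAU arrays, below the offset of 50 that was added to both channels. With an offset of 0 the difference was -0.21 (limma adjusted p = 0.605). With the sample channel alone after quantile normalization, miR-106b differed by -0.72 (SE 0.17; limma adjusted p = 0.0584), where 9.58% of all probes were called. The 4 spots of the probe had a median SD of 0.14 within an array, against a pooled SD of 0.10 between arrays of a group.

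The call of miR-106b was narrow. It was lost when naive replicate 1, 2 or 3, EAU replicate 1 or EAU replicate 3 was left out (limma adjusted p between 0.0629 and 0.124), and it held without EAU replicate 2 (0.0374). It held under 3 of 13 other processing settings, and the difference was negative under all 13 and without each array.

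Markers of other cells differed between the same samples. The summed sample signal above background of 3 photoreceptor miRNAs (miR-183, miR-96 and miR-182) was 2726 to 3064 in naive and 418 to 1091 in EAU samples, with 1 of 3 called lower (miR-183, fitted with a value on 2 of the 3 EAU arrays). That of the neuronal miR-124 and miR-9 was 43921 to 49797 against 5922 to 17222, with 1 of 2 called lower (miR-9). Nearly all of this sum was miR-124, which was not called (limma adjusted p = 0.520, with a value on 2 of the 3 EAU arrays), while miR-9 went from a mean of 281 to 223. The sum of miR-204 and miR-211 of the pigment epithelium was 1256 to 1604 against 242 to 1224, with 2 of 2 called lower. These 7 miRNAs, of the labelled tissue, were above the blanks on all 6 arrays. The 5 leukocyte miRNAs (miR-142-3p, miR-142-5p, miR-223, miR-150 and miR-155) summed to 308 to 366 in naive and 535 to 1255 in EAU samples, with 1 of 5 called higher. Their log2 ratios differed, in that order, by 0.56, 0.47, 0.13, -0.10 and 0.089. The groups overlapped for miR-223 and miR-150 (limma adjusted p = 0.751 and 0.294). Over all tested mouse probes 8.74% were called lower and 4.2% higher. MiR-142-3p and miR-142-5p were under the blanks on all 3 naive arrays and above on all 3 EAU arrays, and miR-155 was under them on all 6. The part of these shifts in the lower ratio of miR-106b was not tested.

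The remaining 3 members of the family were near or under the blanks. MiR-20a, the guide of the fourth hairpin of miR-17-92, had log2 ratios of 0.02, 0.01 and 0.03 in naive and 0.08, 0.13 and 0.08 in EAU samples. The groups did not overlap, and the difference of 0.072 (SE 0.022, 95% interval 0.018 to 0.13) did not pass (limma adjusted p = 0.0810). MiR-93, the middle hairpin of miR-106b-25, had ratios of -0.01, 0.02 and 0.03 in naive and 0.06, 0.09 and 0.07 in EAU samples, again with no overlap. Its difference was 0.059 (SE 0.020, 95% interval 0.0091 to 0.11; limma adjusted p = 0.103). MiR-17, which gives miR-17-92 its name, had ratios of 0.0014, 0.014 and 0.057 in naive against 0.048, 0.088 and 0.055 in EAU samples, which overlapped. The difference was 0.040 (SE 0.023, 95% interval -0.017 to 0.097; limma adjusted p = 0.263). For these 3 the reference signal above the local background was 2.83 to 8.02, under the offset of 50 added to both channels. With an offset of 0 the differences were 0.68 for miR-20a, 0.63 for miR-93 and 0.31 for miR-17. These did not pass either (limma adjusted p = 0.0514, 0.0653 and 0.283). The SEs and intervals above hold for ratios taken with the offset of 50, and do not bound the change in the miRNAs themselves.

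In the authors' deposited table, which holds 1 ratio of sample to reference per probe, miR-20a had a larger difference and passed. Its deposited ratio was 0.935, 0.886 and 0.924 in the naive samples and 1.12, 1.86 and 1.65 in the EAU samples. The log2 difference of these deposited values was 0.72, and it passed in limma (adjusted p = 0.0285), in a table in which 13.9% of 588 mouse probes passed. MiR-17 differed by 0.30 and miR-93 by 0.42 in the deposited table, and neither passed (limma adjusted p = 0.291 and 0.203). MiR-106b differed by -0.52 there and did not pass either (limma adjusted p = 0.114). How that table was normalized is not given in the sources used here.

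The miR-19 family, miR-19a and miR-19b, is the pair through which miR-17-92 is known to promote lymphoma. MiR-19a had log2 ratios of -0.05, 0.13 and 0.05 in naive and -0.0013, 0.16 and -0.048 in EAU samples. MiR-19b had ratios of -0.01, 0.15 and 0.06 against -0.04, 0.10 and -0.04. Both overlapped between the groups, and replicate 2 was highest in each group for both miRNAs. The differences were -0.010 (SE 0.071, 95% interval -0.19 to 0.17) and -0.064 (SE 0.058, 95% interval -0.21 to 0.082), with limma adjusted p-values of 0.934 and 0.473.

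The sample channel alone gave larger values for this family. After quantile normalization miR-19a differed by -0.31 (SE 0.088; limma adjusted p = 0.0935) and miR-19b by -0.32 (SE 0.097; limma adjusted p = 0.103), and neither passed. The profiles of miR-19a and miR-19b over the 6 arrays had a Pearson r of 0.906 in log2 ratio and 0.982 in the sample channel. These values describe 6 arrays on which both probes share the RNA, the slide and a mature sequence that differs by 1 edit.

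The miR-92 family holds miR-92a, the last hairpin of miR-17-92, and miR-25, the last hairpin of miR-106b-25; miR-92a is known to restrain blood vessel growth, and miR-25 to lower Bim with its neighbours. MiR-92a had log2 ratios of -0.51, -0.25 and -0.52 in the naive samples and -0.60, -0.75 and -0.80 in the EAU samples. The groups did not overlap, and all 6 arrays lay below the reference although the reference is a pool of the same samples. The mean went from -0.43 ± 0.16 to -0.72 ± 0.10 (SD, n = 3 each), a difference of -0.29 (SE 0.093, 95% interval -0.52 to -0.056) that did not pass (limma adjusted p = 0.0938).

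With 2 other sets of values miR-92a passed. From the processed signals of the scanner program the difference was -0.92 (limma adjusted p = 0.0443), where 12.1% of probes were called, and in the authors' deposited table it was -0.70 (limma adjusted p = 0.0376). Its deposited ratio was 0.541, 0.754 and 0.415 in naive and 0.329, 0.342 and 0.352 in EAU samples. With the sample channel alone the difference was -0.28 (SE 0.17; limma adjusted p = 0.439). MiR-25 was under the blanks on every array, with ratios of 0.04, 0.03 and 0.01 in naive and 0.05, 0.08 and 0.03 in EAU samples. These overlapped, and the difference was 0.027 (SE 0.020, 95% interval -0.022 to 0.077; limma adjusted p = 0.364).

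MiR-17*, the passenger strand of the Mir17 hairpin, was above the blanks on all arrays. Its log2 ratios were 0.20, 0.07 and 0.17 in naive and 0.052, -0.022 and -0.038 in EAU samples, with no overlap. The difference of -0.15 (SE 0.044, 95% interval -0.26 to -0.041) did not pass (limma adjusted p = 0.0756), and its mean sample signal above background was 126 in both groups. MiR-18a, whose seed differs from that of miR-17, was under the blanks on every array. Its ratios were -0.024, -0.0012 and 0.013 in naive and -0.0046, 0.032 and 0.029 in EAU samples, which overlapped, and its difference was 0.023 (SE 0.020, 95% interval -0.027 to 0.072; limma adjusted p = 0.453). The reference signal of miR-18a was 2.28 to 4.24, under the offset of 50, so the same limit applies to its interval. With an offset of 0 the miR-18a difference was 0.25 (limma adjusted p = 0.409).

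**Figure D3:**
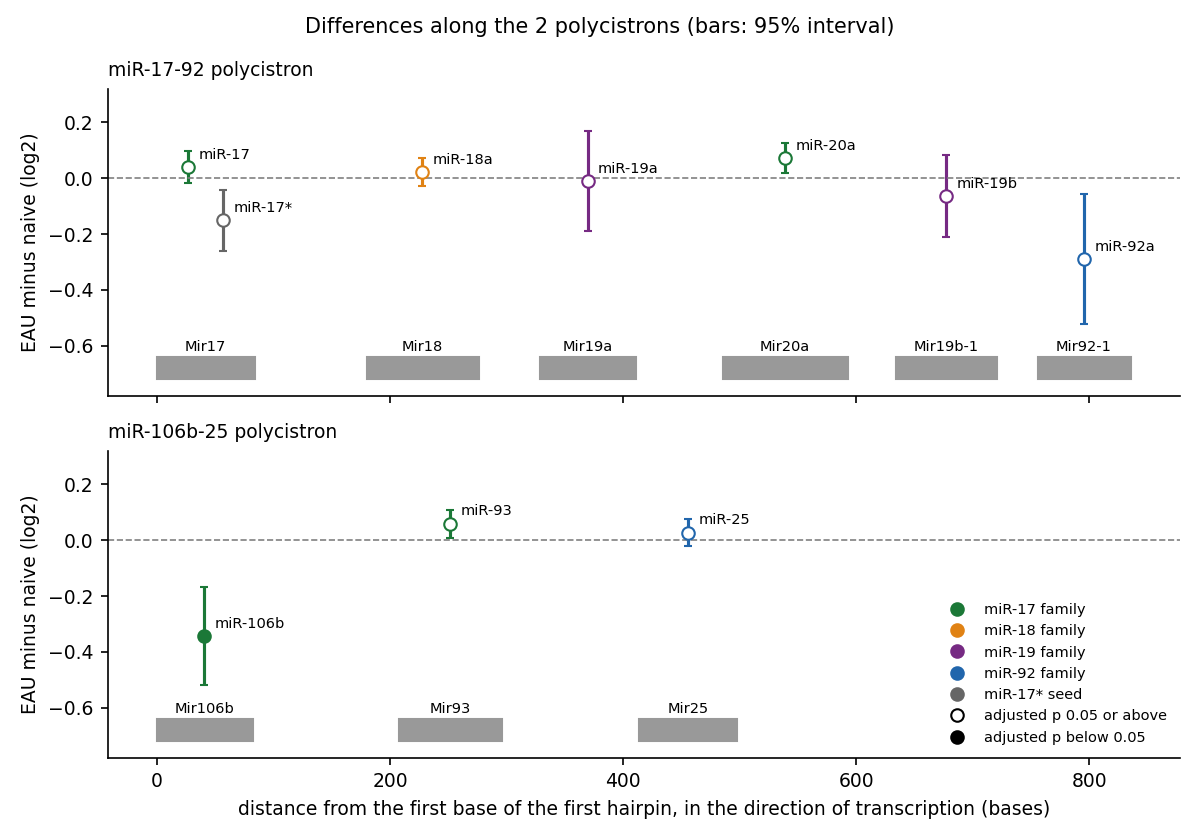
EAU minus naive log2 difference of each member (points, with 95% intervals) above the position of its hairpin (grey boxes), as distance in bases from the first base of the first hairpin. Colours mark the seed families, and the filled point, miR-106b at -0.34, is the one past the adjusted threshold.

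Seen by polycistron, 0 of 7 probes of miR-17-92 and 1 of 3 of miR-106b-25 were called. At an unadjusted p under 0.05 in limma, 2 of the 7 were lower and 1 higher, and 1 of the 3 was lower and 1 higher, where the shares over all tested probes were 23.4% lower and 11.3% higher. The median difference was -0.010 for miR-17-92 (range -0.29 to 0.072) and 0.027 for miR-106b-25 (range -0.34 to 0.059). The mean log2 ratio of the miR-17-92 members was -0.052, 0.019 and -0.019 on the naive and -0.067, -0.038 and -0.11 on the EAU arrays. That of the miR-106b-25 members was 0.19, 0.23 and 0.22 on the naive and 0.13, 0.18 and 0.072 on the EAU arrays, where miR-106b alone sets the order. The positive members of both polycistrons were all at or under the blanks on at least 5 arrays, and the members above the blanks on all arrays were all negative.

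Neighbours and seed mates were set against each other by taking the difference of their log2 ratios on each array and comparing it between the groups. These 10 contrasts were chosen after the values were seen, and with 3 arrays against 3 the exact two-sided permutation test cannot go below 0.1 (0.143 after Benjamini-Hochberg adjustment over the 10). MiR-106b minus miR-93 was 0.58 ± 0.04 in naive and 0.18 ± 0.12 in EAU samples (SD, n = 3 each), a change of -0.40 (exact permutation p = 0.1). MiR-106b minus miR-25 changed by -0.37, miR-17 minus miR-106b by 0.38, miR-20a minus miR-106b by 0.42 and miR-92a minus miR-25 by -0.32, each at the same exact p of 0.1. MiR-19a minus miR-19b changed by 0.054 and miR-17 minus miR-20a by -0.032, also at an exact p of 0.1. The remaining contrasts did not reach this floor. They were miR-17 minus miR-93 (-0.019, exact permutation p = 0.2), miR-93 minus miR-25 (0.031, exact permutation p = 0.3) and miR-20a minus miR-93 (0.013, exact permutation p = 0.4). In the contrasts of miR-106b or miR-92a with miR-93, miR-25, miR-17 or miR-20a, the partner of miR-106b or miR-92a was at or under the blanks on at least 5 arrays. In those among miR-17, miR-20a, miR-93 and miR-25 both were. MiR-19a and miR-19b were above the blanks on all 6 arrays.

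**Figure D4:**
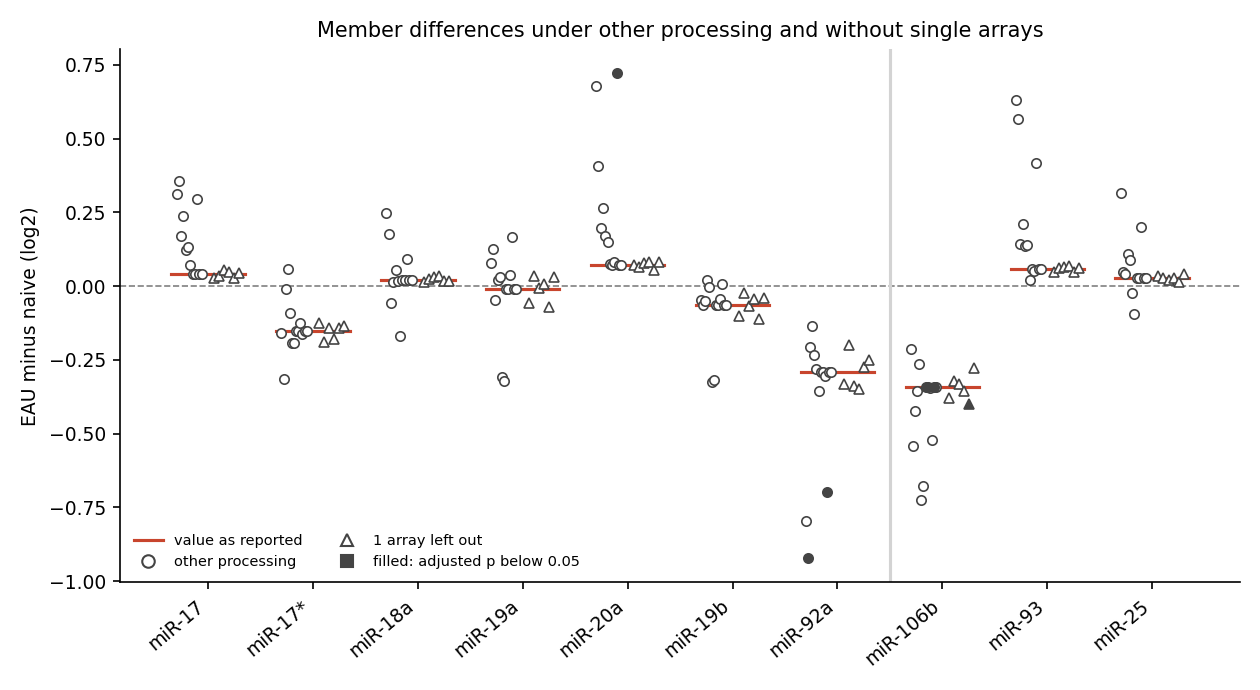
EAU minus naive log2 difference of each member as reported (red line), under other processing settings (circles) and without single arrays (triangles), filled where the adjusted p was below 0.05. MiR-106b and miR-92a stay below 0 throughout, miR-17, miR-20a and miR-93 stay above 0, and miR-17*, miR-18a, miR-19a, miR-19b and miR-25 cross 0.

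Other genes of the same families were read from a list of paralogs and passenger strands. Of 7 same-seed miRNAs of other loci (miR-106a, miR-18b, miR-20b, miR-363, miR-92b, miR-32 and miR-367), 0 were called in either direction, with a median difference of -0.012 and a range of -0.12 to 0.068. At an unadjusted p under 0.05 in limma, 1 was lower and 1 higher, against 23.4% and 11.3% of all tested probes. The lower one was miR-92b, a neural relative of miR-92a (-0.12, SE 0.030; limma adjusted p = 0.0555), and the higher one was miR-106a, which differs from miR-17 by 1 edit (0.068, SE 0.022; limma adjusted p = 0.0954). Of 11 passenger strands, 7 had a mouse probe, and 0 of these were called, with 0 at an unadjusted p under 0.05 in limma and a median difference of -0.0044. Of the 14 probes, 10 were under the blanks on all arrays and 0 above them on all.

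**Figure D5:**
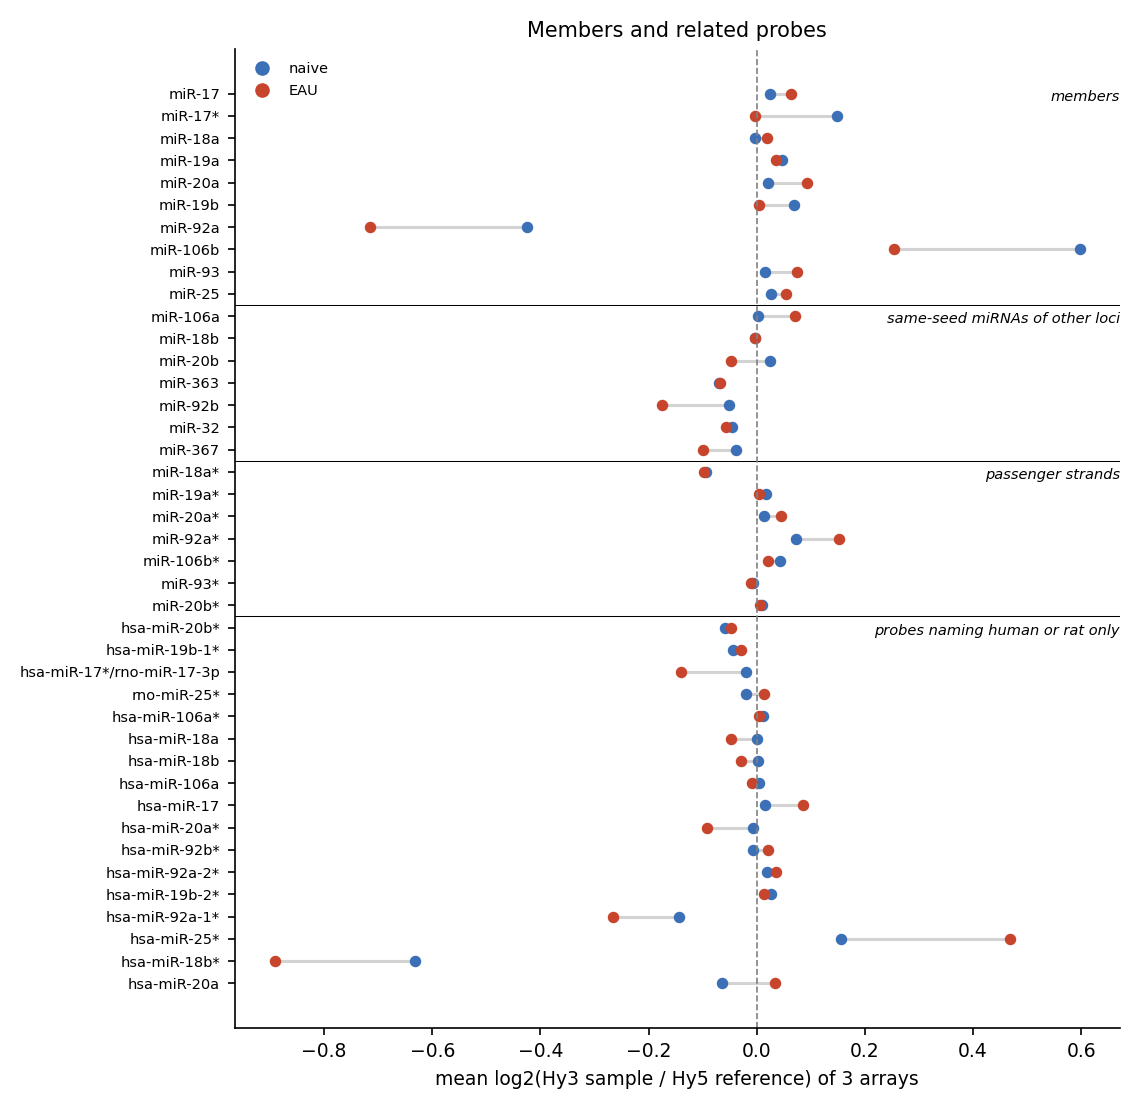
Mean log2 ratio of the 3 naive and of the 3 EAU arrays for the members, for same-seed miRNAs of other loci, for passenger strands, and for probes of the same families that name a human or rat miRNA and no mouse one. MiR-92a, miR-106b, hsa-miR-25* and hsa-miR-18b* lie farthest from 0.

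Among 187 mouse probes outside the members that were above the blanks on all 6 arrays, with a value on each, the closest in profile to the mean of the 10 members were miR-345-5p (Pearson r 0.950 over 6 arrays), miR-654-3p (0.931) and miR-206 (0.930). Their own differences were -0.11, -0.14 and -0.14. The closest to miR-106b, looked up after its values were seen, were miR-135a (0.960), miR-1195 (0.957) and miR-331-3p (0.956), with differences between -0.20 and -0.19. All of these profiles share the arrays and their normalization, and the values are a description.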

How the data were processed

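The authors deposited 1 scanner file per array, with the intensity of each spot and its local background in 2 channels; per the file headers, the program was Agilent Feature Extraction 9.1.3.1. The processed intensity columns were background-subtracted and dye-normalized within it, again per the file headers. They also deposited a table with 1 linear ratio per probe. Over 191 bright mouse probes the median correlation across the 6 arrays of its log2 values with the processed Hy3/Hy5 ratio was 0.934, which gives its direction. A correlation does not change when values are rescaled, so it does not set the scale of the table. The centring of the table is unknown. Its column medians over 588 mouse probes were 0.900, 0.870 and 0.827 for naive and 0.864, 0.913 and 0.846 for EAU replicates 1 to 3.

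Mean spot signals were background-corrected by normexp with an offset of 50 and normalized by loess within each array, giving control spots no weight and dropping outlier spots, before the mean over a probe's spots was taken. Probes were tested with lmFit and eBayes in limma 3.58.1 (R 4.3.3), group as the only term, two-sided; 2 probes lacked values. A positive difference means a higher ratio in EAU. All members are named, and of related probes those called; miR-92b, miR-106a and the contrasts between members were singled out after their values were seen. The members and lists were chosen with earlier results of these data known. The number of arrays limits the precision. The fit was tested on simulated data with planted changes larger than any member difference, so recovery of changes as small as the members' was not tested. In addition, 13 processing settings and 6 omissions of an array were tried.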

Additional observations from a re-analysis of the deposited data

How the results depend on the processing

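Of the 125 and 60 member differences under other processing and without single arrays, 99 and 52 kept their sign and side of the threshold; a filter on probes above the blanks on at least 3 arrays left no value for the 5 dim members. Reversed were miR-17* with no normalization (0.058), miR-18a with median centring (-0.056) and at the 75th percentile of the sample channel (-0.17), miR-19b with no normalization (0.020) and in the deposited table (0.0067), and miR-25 in the sample channel by quantile (-0.023) and 75th percentile (-0.093). MiR-19a was reversed with offset 0 (0.080), processed signals (0.12), no normalization (0.022), loess on spots above the blanks (0.032), the median of spots (0.036) and the deposited table (0.17). It was also reversed without naive replicate 2 (0.033), EAU replicate 1 (0.0086) or EAU replicate 3 (0.032). Over the omissions of single arrays miR-19a ranged from -0.071 to 0.033. The 75th percentile setting moved the median of all probes by itself to -0.15.
MiR-106b was not called with offset 0 (-0.21), processed signals (-0.54), median centring (-0.42), no normalization (-0.35), loess on spots above the blanks (-0.27), the sample channel by quantile (-0.72) or 75th percentile (-0.68), the median of spots (-0.34) or the deposited table (-0.52), and it ranged from -0.40 to -0.28 without single arrays. MiR-20a passed in the deposited table (0.72), and miR-92a there (-0.70) and with processed signals (-0.92). The count of members called lower was therefore 0 under each of these settings apart from the processed signals and the deposited table, where the 1 was miR-92a, and 0 to 1 without single arrays; 1 member was called higher in the deposited table. The cause was not tested.
With the replicate number as a block, miR-106b kept -0.34 and was not called (limma adjusted p = 0.0981), 0 members were called and 2 of all probes. Same-numbered samples correlated at 0.19, -0.15 and 0.29, and not every sample correlated best with its own number, so the numbers are not taken as a pairing.
Over all probes, 77 calls (25 higher, 52 lower) became 26 with offset 0 (16 and 10), 2 with median centring, 25 with no normalization (21 and 4), 33 with bright-spot loess (18 and 15), 27 at the 75th percentile, 47 with the median of spots (21 and 26) and 7 to 77 without single arrays: 9, 15 and 36 without naive replicates 1 to 3 and 7 without EAU replicate 3. Processed signals gave 42 higher and 30 lower, and the deposited values gave 42 higher and 40 lower.
The median of miR-17-92 became 0.080 with offset 0, 0.12 with processed signals, -0.19 in the sample channel by quantile or 75th percentile and 0.093 in the deposited table, and ranged from -0.071 to 0.024 without single arrays. In the same order the median of miR-106b-25 was 0.31, 0.049, -0.023, -0.093 and 0.20, and 0.11 with no normalization and 0.089 with bright-spot loess. That of the miR-17 family was 0.47, 0.38, 0.14 (quantile) and 0.36 (deposited), and 0.16 with median centring, 0.22 with no normalization and 0.13 with bright-spot loess. That of the miR-19 family was -0.32 in the sample channel by both scalings and 0.086 in the deposited table. That of the miR-92 family was -0.24 with offset 0, -0.44 with processed signals, -0.013 with no normalization, -0.22 at the 75th percentile and -0.25 in the deposited table. The dim members limit these medians, since 5 of 10 lay at or under the blanks.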

Other observations

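The array also holds 17 probes of the same families that name a human or rat miRNA and no mouse one, which entered no test. Their median EAU minus naive log2 difference was -0.0067, with 8 positive and 9 negative. The probes named for human miR-17, miR-20a and miR-18a differed by 0.069, 0.097 and -0.047, and were above the blanks on 3, 0 and 0 arrays. The mouse probes of these names differed by 0.040, 0.072 and 0.023, so the sign was opposite for miR-18a. A probe named for human miR-17* and rat miR-17-3p differed by -0.12, with overlapping groups, and was above the blanks on 1 array. The mouse miR-17* probe differed by -0.15, with no overlap, and was above them on all 6. Of the 17, 1 was above the blanks on all 6 arrays. That probe, named hsa-miR-25* after the passenger strand of the human miR-25 hairpin, went from 0.16 ± 0.10 in naive to 0.47 ± 0.14 in EAU samples (SD, n = 3 each), a difference of 0.31 with no overlap between the groups. Nor did the groups overlap for hsa-miR-18b* (-0.26), hsa-miR-92a-1* (-0.12), hsa-miR-20a* (-0.086), hsa-miR-17 and hsa-miR-20a. Among all tested mouse probes the groups did not overlap for 46.2%. A rat probe named for miR-25* had a difference of 0.034 and was above the blanks on 0 arrays. The human miR-25* probe and the mouse miR-25 probe (difference 0.027) are for opposite arms, and no mouse miR-25* probe was found to set beside them.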
